A study of Homo sapiens with 6 samples.

Results

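The last 5.13 Mb of the long arm of chromosome 21, chr21:43000000-48129895 in the hg19 build, held 1158 of the 167796 DEK peaks listed for U937 cells. Of these, 42 came from the 15017 peaks of DEK replicate 1 and 1116 from the 152779 peaks of DEK replicate 2. A peak was taken as a member when any of its bases lay in this interval, which covers most of band 21q22.3. The interval was chosen by the peak positions and numbers themselves, because replicate 2 peaks were dense there while replicate 1 peaks were few, so peak density, sharing between the lists and tags per peak are given here as descriptions without a test. U937 is an established human myeloid cell line that grew from a histiocytic lymphoma. Chromatin was crosslinked with 1% formaldehyde for 15 min and precipitated with an antibody to DEK in 2 samples and with an antibody to trimethylated lysine 4 of histone H3 (H3K4me3) in 2 samples, and 2 input samples were taken as controls. All samples were of this cell line with no treatment named, so there were no treatment groups, and the study calls the replicates independent precipitations without stating that the cells came from separate cultures. The peak lists of both DEK and both H3K4me3 samples were used, and no list of the inputs was analysed here.

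DEK is an abundant nuclear protein that binds DNA and histones and is known in myeloid leukemia from the fusion of its gene with NUP214. H3K4me3 marks the start regions of active and poised genes. The end of chromosome 21q is rich in genes and in G and C bases, and it carries leukocyte genes such as ITGB2, the shared β chain of the β2 integrins, and ICOSLG, the ligand of the T-cell costimulator ICOS. It also carries genes that myeloid cells are not known for, such as the hair keratin-associated KRTAP10 and KRTAP12 clusters and the collagen VI genes.

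To show what the peaks look like at the level of bases, 200 bp around the middle are printed for 3 intervals shared by both lists, 2 peaks seen in replicate 1 and not in replicate 2, and 4 peaks seen in replicate 2 and not in replicate 1. All are the + strand of GRCh37, read 5′ to 3′, and each was chosen among the shared intervals with the highest scores in 1 or both lists or the unshared peaks with the most tags, outside annotated untranslated regions. Capitals mark matches on either strand to GAGGAA (a site of the ETS factor PU.1), TGTGGT (RUNX), CACGTG (USF1), and GGGCGG or CCCCACCC (SP1). Different motifs do not overlap in these 9 windows, and GGAA outside GAGGAA is not marked.
Shared, upstream of ICOSLG, chr21:45663712-45663911: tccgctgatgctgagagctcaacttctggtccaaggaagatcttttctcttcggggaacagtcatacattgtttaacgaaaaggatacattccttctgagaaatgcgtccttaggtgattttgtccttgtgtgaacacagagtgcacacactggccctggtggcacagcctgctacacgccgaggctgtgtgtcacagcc
Shared, ADARB1 intron, chr21:46529331-46529530: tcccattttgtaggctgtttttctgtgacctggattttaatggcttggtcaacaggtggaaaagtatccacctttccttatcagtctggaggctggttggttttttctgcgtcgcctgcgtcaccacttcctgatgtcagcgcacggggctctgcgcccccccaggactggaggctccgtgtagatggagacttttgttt
Shared, PCBP3 intron, chr21:47306003-47306202: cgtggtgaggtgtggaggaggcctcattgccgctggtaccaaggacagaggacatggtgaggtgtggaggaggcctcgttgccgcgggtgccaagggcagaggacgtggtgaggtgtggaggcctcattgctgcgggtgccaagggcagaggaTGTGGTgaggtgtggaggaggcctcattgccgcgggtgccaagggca
Replicate 1, ITGB2 intron, chr21:46345286-46345485: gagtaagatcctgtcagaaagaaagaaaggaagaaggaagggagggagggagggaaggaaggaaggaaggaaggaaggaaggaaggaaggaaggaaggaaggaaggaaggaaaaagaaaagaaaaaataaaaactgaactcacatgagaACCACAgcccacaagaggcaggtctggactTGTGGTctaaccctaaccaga
Replicate 1, ABCG1 intron, chr21:43683370-43683569: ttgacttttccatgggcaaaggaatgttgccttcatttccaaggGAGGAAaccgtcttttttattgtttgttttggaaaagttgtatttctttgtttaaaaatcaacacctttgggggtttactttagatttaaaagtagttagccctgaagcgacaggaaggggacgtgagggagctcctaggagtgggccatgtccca
Replicate 2, beyond the 3′ end of SLX9, chr21:46401222-46401421: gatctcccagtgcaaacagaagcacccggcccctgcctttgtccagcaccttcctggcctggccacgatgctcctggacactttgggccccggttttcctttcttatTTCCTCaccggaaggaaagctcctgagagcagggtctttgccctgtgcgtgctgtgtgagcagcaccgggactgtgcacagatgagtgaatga
Replicate 2, beyond the 3′ end of ITGB2, chr21:46304893-46305092: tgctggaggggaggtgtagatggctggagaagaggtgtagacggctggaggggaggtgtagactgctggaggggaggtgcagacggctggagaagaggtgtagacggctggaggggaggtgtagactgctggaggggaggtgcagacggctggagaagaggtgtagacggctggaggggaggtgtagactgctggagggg
Replicate 2, ITGB2 intron, chr21:46314994-46315193: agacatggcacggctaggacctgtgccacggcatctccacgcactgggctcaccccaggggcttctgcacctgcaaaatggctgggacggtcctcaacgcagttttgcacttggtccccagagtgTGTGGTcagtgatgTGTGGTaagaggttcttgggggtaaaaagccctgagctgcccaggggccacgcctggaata
Replicate 2, WDR4 intron, chr21:44271806-44272005: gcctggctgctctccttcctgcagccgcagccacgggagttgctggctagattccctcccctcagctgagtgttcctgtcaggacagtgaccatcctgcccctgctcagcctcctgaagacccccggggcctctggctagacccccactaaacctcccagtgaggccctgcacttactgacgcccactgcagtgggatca

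These windows were of unlike composition. The printed replicate 1 window in ABCG1 was 42% G and C and the one in ITGB2 46%, the latter with a long run of GGAA repeats. The 4 printed replicate 2 windows ranged from 58.0% to 63.5%. Among the unshared replicate 1 peaks with the most tags, C2CD2 and a second ABCG1 peak had unprinted windows within this range. The unprinted window in PDE9A lay between the printed windows of the lists. The printed windows alone therefore do not separate the lists by composition. The windows of PCBP3 and of the 3′ side of ITGB2 were built of tandem repeats with longer units: 52.9% and 93.7% of their 12-base words occurred more than once in the window. Such repeats were uncommon among the members as a whole, a count made after these sequences had been read. At least 50% of the 12-base words were repeated in 27 of 1116 replicate 2 windows of 300 bp (2.42%, 95% Wilson interval 1.67 to 3.5) and in 1 of 42 replicate 1 windows, beside 2.17% of all 300 bp tiles of the interval and 0.236% of the tiles of the rest of chromosome 21. Among the 59 replicate 2 peaks with at least 100 tags the share was 8.47% (3.67 to 18.4), from 5 windows. Intervals of this kind cover counting error only.

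The 2 lists differed most in how many peaks they placed here. Per Mb of sequenced bases, replicate 2 had 220 peaks at distal 21q22.3 and 46.5 in the rest of chromosome 21, a ratio of 4.74, and its density over chromosomes 1 to 22, X and Y was 53.3. Replicate 1 had 8.3 peaks per Mb here, 5.46 in the rest of the chromosome and 5.22 over the genome, so its density was 1.52 times that of the rest. With 14.4% of the sequenced bases of chromosome 21, the interval held 44.4% of the chromosome's replicate 2 peaks and 20.4% of its replicate 1 peaks. There were 26.6 replicate 2 peaks for each replicate 1 peak, against 8.52 in the rest of the chromosome and 10.2 over the whole lists. Replicate 2 peaks covered 28.6% of the bases of the interval and 3.4% of the rest, while replicate 1 peaks covered 1.35% and 0.636%. The H3K4me3 intervals were denser here in both replicates, with 33.4 and 17.0 per Mb against 15.8 and 8.85 in the rest, which are ratios of 2.12 and 1.92.

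The start of the interval lay in a gap of both lists. Just outside it, the nearest replicate 1 peak at chr21:42857401-42858028 had 23 tags and the nearest replicate 2 peak at chr21:42952594-42953344 had 15. Just inside, the first replicate 1 peak at chr21:43030320-43031347 had 39 tags and the first replicate 2 peak at chr21:43021083-43021780 had 18, and TMPRSS2 was the nearest coding gene to all 4.

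Along the chromosome the 2 lists had different summits. In the 5 full 1 Mb windows of distal 21q22.3, from the centromere side to the end, replicate 2 had 164, 210, 263, 243 and 219 peaks. Replicate 1 had 15, 5, 10, 7 and 4 in the same windows. No other window of chromosome 21 that was at least 50% sequenced exceeded 114 replicate 2 peaks per Mb, whereas replicate 1 had up to 26 in a window, at 34 to 35 Mb. The stretch from 34 to 41 Mb held 103 replicate 1 peaks and 583 replicate 2 peaks, 5.66 for each replicate 1 peak, and 28 shared intervals. The G and C content was 49.5% to 52.4% in the 5 distal windows and 41.9% to 44.4% in that stretch. Across the 35 windows that were at least 50% sequenced, replicate 2 density followed G and C content with a Spearman rho of 0.796 and replicate 1 density with 0.42, while the rho with H3K4me3 density of replicate 1 was 0.759 for replicate 2 and 0.848 for replicate 1. These correlations are descriptions over neighbouring windows of 1 chromosome.

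**Figure D1:**
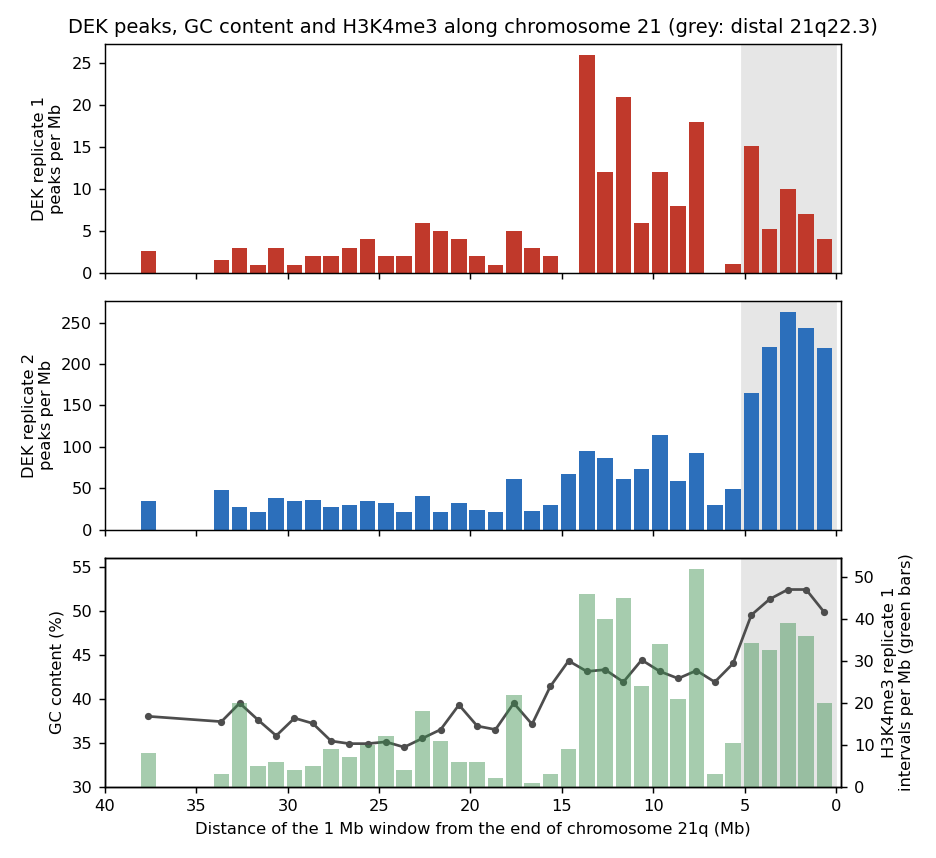
Peaks of DEK replicate 1 (top) and DEK replicate 2 (middle) per Mb, and G and C content with H3K4me3 intervals of replicate 1 (bottom), in 1 Mb windows of chromosome 21 by distance from the end of the long arm; windows less than 50% sequenced are left out and grey marks distal 21q22.3. Replicate 2 stood at 165 to 263 peaks per Mb in the grey area and at no more than 114 elsewhere, while the highest replicate 1 window, with 26, lay outside it.

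The wide gap between the lists was also seen in other windows of the same base composition. In the 1 Mb windows of the whole genome outside the interval, the number of replicate 2 peaks per replicate 1 peak was 6.54 where G and C made up less than 38% of the bases, 19.7 at 48% to 50%, 25.8 at 50% to 52% and 54.1 at 52% or more. The distal 21q22.3 windows in the last 3 of these classes gave 20.2, 42 and 29.8. The replicate 1 density of the outside windows stayed between 3.01 and 7.08 peaks per Mb over all classes, while the replicate 2 density went from 19.7 to 231. Ranked by replicate 2 peaks per sequenced base among 2869 windows, the 5 windows came 113th, 39th, 19th, 29th and 41st. The distal ends of equal length of all 24 chromosomes gave a like picture: 21q came 2nd by replicate 2 peaks after 17q with 1227, 4th by replicate 1 peaks, 3rd by shared intervals and 9th by the number of replicate 2 peaks per replicate 1 peak, for which the other 23 ends had a median of 22 and a range of 1.33 to 59.8. The part of base composition in the difference between the lists was not tested.

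**Figure D2:**
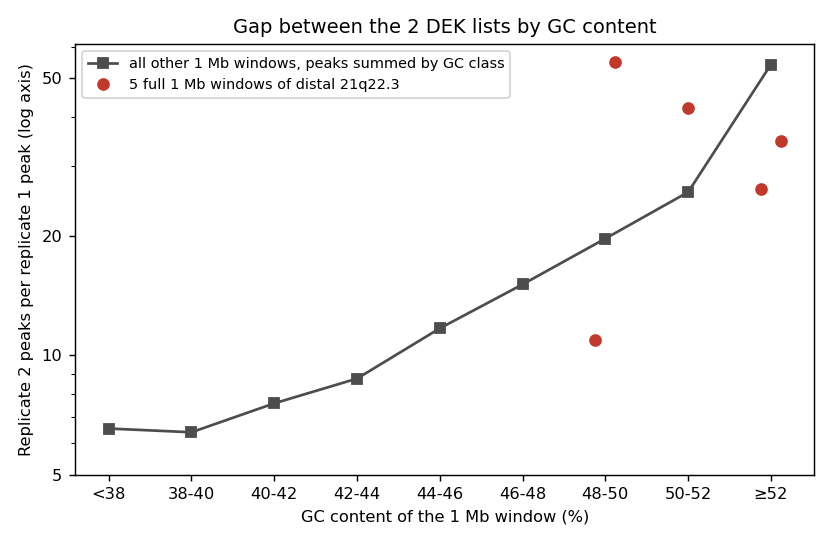
Replicate 2 peaks per replicate 1 peak (log axis) against the G and C content of 1 Mb windows. Squares are all other windows of the genome with their peaks summed by class, and circles are the 5 full windows of distal 21q22.3, at 10.9 to 54.8 peaks. The circles lie on both sides of the square at 48% to 50%, above the square at 50% to 52% and below the square at 52% or more.

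The peaks of distal 21q22.3 held more tags than those of the rest of the chromosome in both lists. The lowest, median and highest numbers of tags in a replicate 1 peak were 23, 76.5 and 218, against a median of 43 in the rest of chromosome 21 and 47 in the whole list. For replicate 2 these numbers were 12, 30 and 505, against medians of 18 and 20. The peaks were also wider, at a median of 1345 bp against 980 bp in replicate 1 and 1016 bp against 647 bp in replicate 2, so that tags per kb of peak differed less: 50.1 against 44.2 and 29.0 against 28.3. The score, which the peak caller gives as 10 times the negative log10 of its p-value, reached 100 in 16 of 42 replicate 1 peaks (38.1%, whole list 24.7%) and in 493 of 1116 replicate 2 peaks (44.2%, whole list 29.6%). The fold over the local background, with input as control, was not higher, with medians of 5.23 against 5.79 in replicate 1 and 4.07 against 4.84 in replicate 2. Peaks of at least 3000 bp made up 4.75% of the replicate 2 members, 1.29% of the whole list and 0.215% of the replicate 2 peaks in the rest of the chromosome. For replicate 1 these shares were 9.52%, from 4 peaks, 3.1% and 1.83%. The false discovery rate listed for every replicate 1 peak was 100%, here and in the whole list, while it ran from 0.74% to 5.0% for the replicate 2 members.

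Replicate 2 kept its dense block when the lists were made equally long. These were part of the same peaks by which the interval was chosen, so this is a description and no separate support. The 15017 highest-scoring peaks of replicate 2, all with a score of at least 153.66, included 257 at distal 21q22.3 and 87 in the rest of chromosome 21. The density was then 17.5 times that of the rest, and there were 6.12 such peaks for each replicate 1 peak here and 0.53 in the rest.

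Peaks of the 2 lists met at 26 shared intervals of at least 1 bp, from 23 replicate 1 peaks and 25 replicate 2 peaks. Of the 42 replicate 1 peaks, 54.8% were shared (39.9 to 68.8), where the whole list gives 27.4% and the rest of chromosome 21 also 27.4%. The share of replicate 1 peaks that were shared fell to 6 of 42 (14.3%) with lists of equal length, where the rest of the chromosome gave 1.83%, and to 3 of 16 (18.8%) with a score of at least 100 in both lists, where the rest gave 9.3%. At the other 23 chromosome ends of equal length the share of replicate 1 peaks ranged from 0.0% to 73.3% with a median of 47.2%, and 4 ends lay above this one. Of the 1116 replicate 2 peaks, 2.24% were shared (1.52 to 3.29), where the whole list gives 2.9% and the rest of the chromosome 3.15%. The higher share for replicate 1 has to be read beside the bases that replicate 2 covers. Replicate 2 peaks took up 37.9% of the bases in replicate 1 peaks and 28.6% of all bases of the interval, a ratio of 1.33, whereas in the rest of the chromosome they took up 17.9% of the bases in replicate 1 peaks and 3.4% of all bases, a ratio of 5.26. When each peak had to cover at least 50% of the other, 13 of 42 replicate 1 peaks were shared here (31%) and 22.6% in the rest.

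The highest scores did not single out the shared peaks. Of the 42 highest-scoring replicate 2 peaks 0 were shared, of the 42 with the most tags 3 (7.14%), and of the 493 with a score of at least 100, 14 (2.84%), beside 2.24% of all replicate 2 members. Of the 16 replicate 1 peaks with a score of at least 100, 5 were shared (31.2%), beside 54.8% of all replicate 1 members. Both scores reached 100 at 4 of the 26 shared intervals. Median tags were 50 in shared and 30 in unshared replicate 2 peaks, and 86 and 70 in replicate 1. Median scores were 113 and 91.2 in replicate 2, and 77.8 and 117 in replicate 1. The 19 unshared replicate 1 peaks nevertheless lay close to replicate 2 peaks, at 14 to 5229 bp with a median of 1747 bp, in a stretch of chromosome where the median space between consecutive replicate 2 peaks was 1634 bp. Unshared replicate 2 peaks lay a median of 50756 bp from the nearest replicate 1 peak. By G and C content, 9 of 196 replicate 2 peaks under 50% were shared, 15 of 628 from 50% to 60%, and 1 of 292 at 60% or more.

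**Figure D3:**
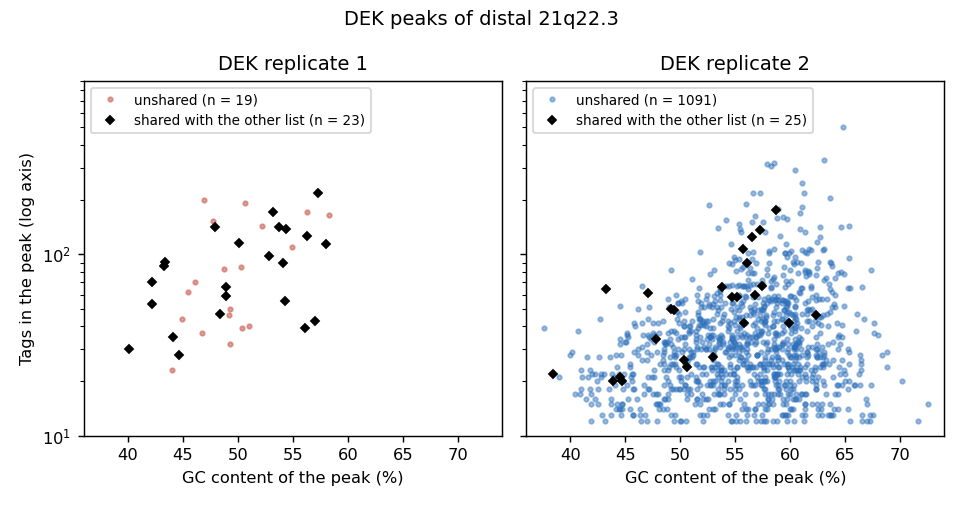
Tags in each member (log axis) against the G and C content of the peak, for DEK replicate 1 (left, 42 peaks) and DEK replicate 2 (right, 1116 peaks), with shared peaks as black diamonds. Replicate 1 peaks lay between 40.1% and 58.3% and replicate 2 peaks between 37.6% and 72.5%. Shared replicate 2 peaks had a median of 50 tags and up to 176, and unshared ones a median of 30 and up to 505.

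Most of the shared intervals, here as in the whole list, had their middle more than 1 kb from an annotated start site. The 1216 bp interval upstream of ICOSLG, chr21:45663205-45664420, had 170 tags with a score of 130.95 in replicate 1 and 58 tags with a score of 125.69 in replicate 2, the highest value among the 26 intervals for the lower of the 2 scores. The middle of this interval lay within 1 kb of a start site of another gene, ENSG00000275799. The same replicate 1 peak met a second replicate 2 peak at chr21:45665173-45666305, also with 58 tags. In an ADARB1 intron, chr21:46529305-46529557 had 91 tags in replicate 1, at 10.99-fold over the background, and 27 in replicate 2, and a second ADARB1 interval at chr21:46571994-46572704, with 47 and 24 tags, lay at an internal start site. ADARB1 encodes an adenosine deaminase that edits RNA, and both intervals overlapped H3K4me3 in both replicates. PDXK, the kinase that makes active vitamin B6, held an interval at chr21:45145789-45146457 with 116 and 176 tags. The interval with the most tags in replicate 1, at chr21:45625530-45628527 in GATD3, had 218 and 136. Its middle lay within 1 kb of a start site of AP001058.3. In PCBP3, a poly(C)-binding protein gene, chr21:47305609-47306598 had 39 tags in replicate 1 and 124 in replicate 2, so the list with more tags was not the same at every interval. Across the 26 intervals the tags of the 2 lists had a Spearman rho of 0.375 and the scores one of −0.0838, given as a description since some intervals share a peak.

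The nearest coding genes of the other shared intervals were AGPAT3, PDE9A, SLC37A1, LRRC3, DIP2A and PRMT2 with 2 each, and PRDM15, U2AF1, RRP1, TRAPPC10, AP001055.1, KRTAP10-11 and UBE2G2 with 1 each. The GATD3 interval above had ICOSLG as its nearest coding start site. Several of these genes serve functions that many cell types need. AGPAT3 builds phospholipids, U2AF1 recognises the 3′ splice site and RRP1 takes part in ribosomal RNA processing. TRAPPC10 takes part in vesicle transport and UBE2G2 in the degradation of proteins from the endoplasmic reticulum. Others, such as the hair keratin-associated KRTAP10-11, are not of this kind. Being nearest did not mean lying at the gene start. The intervals of RRP1 and U2AF1 lay between genes, 20394 and 4798 bp from the nearest coding start site. Of the 2 AGPAT3 intervals, 1 lay between genes and 1 in an intron. The UBE2G2 interval lay in an intron at 12529 bp, and that of TRAPPC10 within 1 kb of an internal start site. Of the 26 intervals, 5 had their middle within 1 kb of an annotated transcription start site (19.2%, 8.51 to 37.9), beside 26.2% of all shared intervals, and 2 within 1 kb of one of a coding gene. The tags at the PDE9A intervals, 141 and 50 at chr21:44097513-44098050 and 89 and 67 at chr21:44123627-44124752, were within the range of the others.

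The unshared replicate 1 peaks with the most tags were all in introns, among them those of the leukocyte genes ITGB2 and ABCG1. In ITGB2, chr21:46343788-46346984 had 200 tags, the highest replicate 1 score at 308.64 and 9.48-fold enrichment, and lay 500 bp from the nearest replicate 2 peak. ABCG1, a cholesterol exporter of macrophages, had peaks of 191 tags at chr21:43682270-43684671, 24 bp from a replicate 2 peak, and of 170 tags at chr21:43687825-43690161. PDE9A, a phosphodiesterase for cyclic GMP, had 164 tags at chr21:44165600-44167717, and C2CD2 had 152 at chr21:43346983-43349954. All 5 overlapped an H3K4me3 interval, those of ITGB2 and C2CD2 in both H3K4me3 replicates.

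The unshared replicate 2 peaks with the most tags were broad. The first, chr21:45741308-45752185, was 10878 bp long with 505 tags, a score of 2224.09 and 11.32-fold enrichment, and ran from the 3′ part of PFKL, the liver type of phosphofructokinase, into the neighbouring gene CFAP410. No replicate 1 peak lay within 75003 bp of it. A peak beyond the 3′ end of SLX9, chr21:46398728-46403916, had 330 tags and the highest fold of the members of this list, 15.31. ITGB2 had 318 tags in a peak over its 3′ end, chr21:46301372-46308615, and 313 in an intron, chr21:46311626-46318562, toward the 3′ end of the gene, whereas its replicate 1 peak lay toward the 5′ end. WDR4, a subunit of a transfer RNA methyltransferase, had 306 tags at chr21:44267281-44276531. Of these 5, 1 overlapped H3K4me3, the peak over the 3′ end of ITGB2.

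The interval was also divided into the stretches between consecutive replicate 1 peaks, which hold no replicate 1 peak by definition. The 4 with the most replicate 2 peaks spanned 2.14 Mb of the 5.13 Mb together. They held 481 of the 1116 replicate 2 peaks (43.1%), close to their share of the length. Between the last ADARB1 peak and PCBP3, chr21:46572869-47217001 held 152 replicate 2 peaks of 12 to 181 tags over POFUT2, COL18A1 and SLC19A1. From PCBP3 to DIP2A, chr21:47306599-47933785 held 151 of 12 to 138 tags, over COL6A1, COL6A2, FTCD, LSS, MCM3AP, YBEY and PCNT among others. The stretch chr21:44511801-45040949, with U2AF1, CRYAA and SIK1, held 98, and chr21:44167718-44510895, with WDR4, NDUFV3, PKNOX1 and CBS, held 80. These 4 stretches were not without H3K4me3, with 12, 13, 12 and 9 intervals of H3K4me3 replicate 1.

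The lists also differed in the number of genes with a peak at a start. Such counts follow the 1116 and 42 peaks of the lists, a contrast by which the interval was chosen. The 5′ end of the longest annotated span of a gene had a replicate 2 peak with its middle within 1 kb at 48 of the 81 coding genes, and a replicate 1 peak at none, the closest being 1589 bp away. With every annotated start site counted, 67 of the 81 genes had a replicate 2 peak (82.7%, genome 56.9%, rest of chromosome 21 50.7%) and 2 had a replicate 1 peak (2.47%, genome 8.46%, rest 5.41%), at internal start sites of TRAPPC10 and ADARB1. Counted by peak, 226 of 1116 replicate 2 peaks (20.3%, 18.0 to 22.7) and 5 of 42 replicate 1 peaks (11.9%, 5.19 to 25) lay within 1 kb of a start site of any kind, beside 16.8% and 16.4% of those lists over the genome. Counted in this way, the intervals of the lists overlapped. The bases within 1 kb of a start site make up 15.7% of this interval and 6.47% of the rest of the chromosome. Introns of coding genes, away from start sites, held the middle of 24 of the replicate 1 peaks (57.14%, rest of the chromosome 37.8%). They held 467 of the replicate 2 peaks (41.85%, rest 38.01%). Coding genes as a whole take up 61.8% of the bases of the interval and 35.5% of the rest. No comparison with the bases in introns alone was made, so these counts show no preference for introns.

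**Figure D4:**
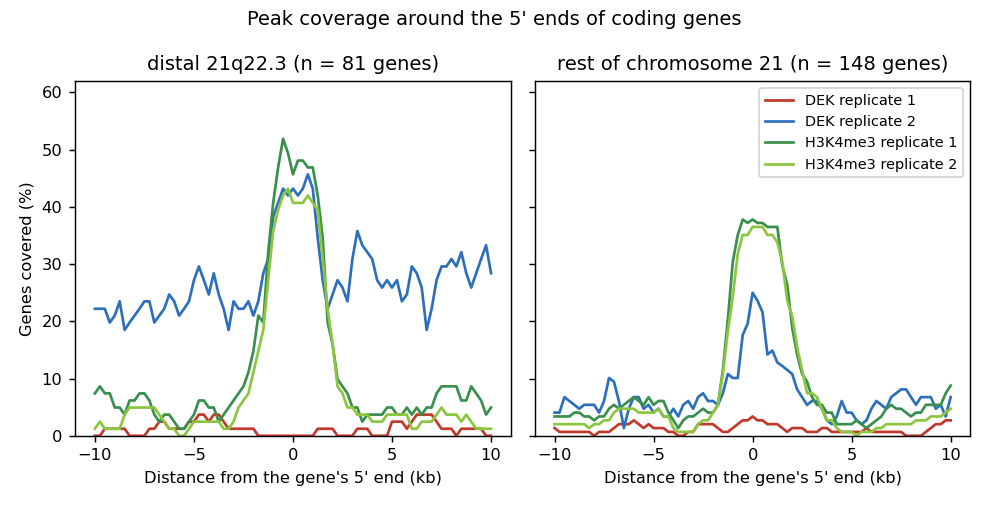
Share of coding genes whose sequence at a given distance from the 5′ end (negative: upstream) was covered by each list, for the 81 genes of distal 21q22.3 (left) and the 148 of the rest of chromosome 21 (right). Replicate 2 rose at the 5′ end in both, from a level near the 28.6% of bases it covers on the left, while replicate 1 covered the 5′ end of 0 of the 81 genes.

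By function, no group is set apart here, since 82.7% of all 81 coding genes of the interval had a replicate 2 peak at a start site and 2.47% a replicate 1 peak, and the groups hold 2 to 26 genes. Among 6 immune genes, 5 had a replicate 2 peak within 1 kb of a start site and 0 had a replicate 1 peak there, while ITGB2, ABCG1 and UBASH3A, a regulator of T-cell receptor signalling, had replicate 1 peaks inside the gene. TRPM2, a calcium channel of myeloid cells, held 25 replicate 2 peaks of 13 to 90 tags and AIRE, the thymic autoimmune regulator, 5 of 19 to 52 tags, with no replicate 1 peak in either. All 8 genes of RNA and ribosome function had a replicate 2 peak at a start site, as did all 10 of metabolism, both ubiquitin and SUMO genes and all 5 of trafficking, centrosome and cilium. ADARB1 held 24 replicate 2 peaks and 2 of replicate 1, PDXK 13 and 1, and AGPAT3 40 and 1. CBS, the first enzyme of transsulfuration, held 11 replicate 2 peaks and FTCD, of folate metabolism, 9, both at 4.63 per 10 kb, with no replicate 1 peak and no H3K4me3 at their start sites. Of 5 chromatin and transcription genes, 3 had a replicate 2 peak at a start site, and PRDM15 held 27 inside the gene. Over all coding genes, 69 of 81 had a replicate 2 peak inside (85.2%, genome 78.9%) and 17 a replicate 1 peak (21%, genome 22.7%).

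Replicate 2 peaks also lay in genes without H3K4me3 at their start. The 4 matrix genes COL6A1, COL6A2, COL18A1 and POFUT2 held 72 replicate 2 peaks and no replicate 1 peak, and H3K4me3 lay at a start site of POFUT2 alone among them. Only 17 of the 81 coding genes of the interval (21%) had a replicate 1 peak inside, so its absence from 4 genes does not set them apart. COL6A1 had 15 peaks of 12 to 36 tags, or 6.44 per 10 kb, and COL18A1 had 40 of 12 to 181 tags. The whole interval had 220 replicate 2 peaks per Mb. COL18A1 partly overlaps SLC19A1, which had H3K4me3 at a start site in both replicates, and peaks in the overlapping part count for both genes. Of 26 epithelial genes, including the KRTAP10 and KRTAP12 clusters with 2 pseudogenes, 16 had a replicate 2 peak at a start site and 3 had H3K4me3 there in replicate 1. CRYAA, a lens crystallin, had a replicate 2 peak of 105 tags, and the trefoil factor genes TFF1, TFF2 and TFF3 had peaks of 25 to 54 tags. In all, a replicate 2 peak lay at a start site of 24 of the 34 coding genes without H3K4me3 (70.6%) and of 37 of the 39 with it in both replicates (94.9%).

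The overlap with H3K4me3, which played no part in choosing the interval, was high for replicate 1 and low for replicate 2, as it was in the whole lists. An H3K4me3 interval of either replicate overlapped 27 of 42 replicate 1 peaks (64.3%, 49.2 to 77.0), where the whole list gives 51.3% and the rest of the chromosome 51.8%. The same held for 111 of 1116 replicate 2 peaks (9.95%, 8.33 to 11.8), where the whole list gives 11.0% and the rest 10.2%. With both H3K4me3 replicates required, the share of replicate 1 peaks here was below the list: 9 of 42 (21.4%, 11.7 to 35.9), beside 32.9% of the whole list and 34.1% in the rest of the chromosome. For replicate 2 it was 6.0%, beside 7.74% and 6.44%. In bases, H3K4me3 replicate 1 covered 62.1% of the replicate 1 peaks, 9.37 times its 6.63% of the interval, and 8.31% of the replicate 2 peaks, 1.25 times. In the rest of the chromosome these ratios were 21.2 and 4.14. Of the shared intervals, 16 of 26 overlapped H3K4me3 of either replicate (61.5%, 42.5 to 77.6, whole list 50.3%), and 4 of 26 that of both (15.4%, 6.15 to 33.5), beside 33.7% of the whole list and 22.2% in the rest. Replicate 1 peaks with H3K4me3 had 44 to 218 tags with a median of 114 and those without had 23 to 89 with a median of 39, and the medians for replicate 2 were 49 and 29.

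The replicate 1 peaks that met H3K4me3 were also divided by whether both H3K4me3 replicates held the mark there. All 27 overlapped an interval of H3K4me3 replicate 1, and 9 also overlapped one of H3K4me3 replicate 2. Of the 169 H3K4me3 replicate 1 intervals here, 81 were also in H3K4me3 replicate 2, and 49 of these 81 had their middle within 1 kb of a start site. DEK replicate 1 overlapped 10 of these 81 (12.3%, 6.85 to 21.3) and 17 of the 88 found in H3K4me3 replicate 1 alone (19.3%, 12.4 to 28.8). The whole-list share was 15.8% for all H3K4me3 replicate 1 intervals, a value that lies within the intervals of both shares. DEK replicate 2 overlapped 57 of the 81 (70.4%, 59.7 to 79.2) and 35 of the 88 (39.8%, 30.2 to 50.2). The whole list gives 28.5%, but for all H3K4me3 replicate 1 intervals without this division. These shares have to be read beside the dense replicate 2 peaks of the interval. Replicate 2 covered 35.9% of the bases of H3K4me3 replicate 1 here and 28.6% of all bases, a ratio of 1.26, where the rest of the chromosome gave 4.15. In the rest of chromosome 21 both DEK lists met the intervals found in both H3K4me3 replicates more often, at 24.6% against 10.2% for replicate 1 and 32% against 15.0% for replicate 2. This division of the H3K4me3 intervals was made after the overlaps had been seen.

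**Figure D5:**
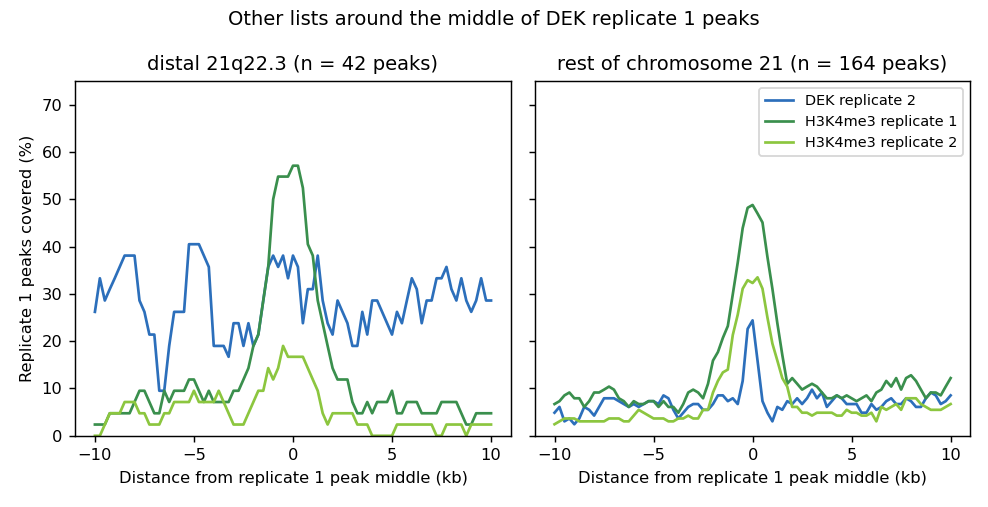
Share of DEK replicate 1 peaks whose sequence at a given distance from the peak middle was covered by DEK replicate 2 or by H3K4me3, for 42 peaks of distal 21q22.3 (left) and 164 of the rest of chromosome 21 (right). Replicate 2 formed a narrow summit on the right and little more than its level at 10 kb on the left, while H3K4me3 replicate 1 formed a summit in both and H3K4me3 replicate 2 a lower one on the left.

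The base composition of the members also differed between the lists. Replicate 1 peaks had a median G and C content of 49.3% and replicate 2 peaks 56.5%, in an interval where all bases together stood at 50.9%. The medians in the rest of the chromosome were 45.1% and 46.8%, where all bases stood at 39.1%. The 5 motifs were counted in 300 bp around the peak middle on both strands. GAGGAA was found in 33.3% of replicate 1 windows (21 to 48.5, genome list 31%) and 21.6% of replicate 2 windows (19.3 to 24.1, genome list 15.0%), where 22.5% of all tiles of the interval held it. TGTGGT was found in 38.1% (25 to 53.2, genome list 27.6%) and 20.2% (17.9 to 22.6, genome list 20.4%), with 21.7% of tiles. GGGCGG was found in 4.76% (1.32 to 15.8, genome list 11.1%) and 18.5% (16.3 to 20.8, genome list 21.9%), with 13.4% of tiles. CACGTG, a palindrome, was found in 9.52% and 10.8%, against 4.74% and 4.92% in the genome lists and 7.51% of tiles, and CCCCACCC in 9.52% and 8.78%, against 3.7% and 4.14% and 6.46% of tiles. Windows at the 26 shared intervals held CACGTG in 7.69% (genome list 5.62%), CCCCACCC in 7.69% (4.94%), GAGGAA in 26.9% (21.2%), TGTGGT in 30.8% (22%) and GGGCGG in 11.5% (23.6%). A match says only that these letters were in the window.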

How the data were processed

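Crosslinked chromatin of U937 cells was precipitated in 2 DEK and 2 H3K4me3 samples, sequenced, and compared with input. Per the labels and the submitters' processing notes, the authors aligned reads to hg19 with Bowtie2 and called peaks with MACS 1.4.1, separately in each sample. The deposited DEK lists hold, for each peak, its position, its raw count of tags, the score of MACS (its p-value as −log10, multiplied by 10), the fold over the local background as a ratio, and a false discovery rate in percent. The deposited H3K4me3 lists hold positions alone, and how they were filtered is not given in the sources used here. No pooled or input list was analysed, and the methods give a lower bound on sequencing depth but no read total for either DEK list, so a difference in depth between the DEK samples could move every comparison of numbers of peaks.

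Members were all peaks overlapping chr21:43000000-48129895. The members, gene groups and motifs were chosen with earlier results of these data known. The named genes were those nearest to the shared intervals, those nearest to the 5 unshared peaks of each list with the most tags, the 8 gene groups, and the peaks beside the start of the interval. Densities are per Mb of bases other than N. Genes and start sites came from GENCODE release 44 mapped to GRCh37, and a peak was assigned by its middle. Peaks were called shared at an overlap of at least 1 bp. Intervals in parentheses are 95% Wilson intervals and cover counting error only. No test was run, since the design has 1 peak list for each DEK sample and the interval was chosen by these lists. Alternatives used a score of at least 100, lists of equal length, other overlaps, distances and windows, and each replicate alone. Python 3.11.15, NumPy 2.4.6, SciPy 1.17.1 and pandas 2.3.3 were used, and the overlap and distance functions were tested on simulated intervals.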

Additional observations from a re-analysis of the deposited data

How the results depend on the processing

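Of 60 alternative values, 25 stayed within the 95% interval of the value reported, 35 moved out of it and 0 reversed. No paired analysis was possible because the results come from no test. Density over the rest of the chromosome was 2.21 (replicate 1), 8.08 (replicate 2) and 7.46 (both lists together, reported 4.4) with a score of at least 100, and 2.15, 6.7 and 6.22 per Mb of assembly length, where the unsequenced bases of the short arm count. With 1 replicate left out the value for both lists ranged from 1.52 to 4.74. Lists of equal length gave a density of 17.5 for replicate 2, 6.12 replicate 2 peaks per replicate 1 peak and 14.3% of replicate 1 peaks shared. The shared part of the replicate 1 and replicate 2 peaks was 31% and 1.16% at an overlap of 50% of each peak, 71.4% and 4.03% with a gap of up to 1000 bp, and 18.8% and 0.811% with a score of at least 100 in both lists. Median tags over the rest of the chromosome were 1.13 and 1.02 per kb of width, against 1.78 and 1.67 per peak, and 1.92 for replicate 2 with a score of at least 100. With start sites of coding genes alone, 7.69% of shared intervals, 4.76% of replicate 1 peaks and 14.5% of replicate 2 peaks lay within 1 kb, and 34.7% of replicate 2 peaks lay within 2 kb of any start site. Without replicate 1 or 2, the share near a start site ranged from 11.9 to 20.3% and that overlapping H3K4me3 from 9.95 to 64.3%. Both H3K4me3 replicates overlapped 15.4% of shared intervals, 21.4% of replicate 1 peaks and 6.0% of replicate 2 peaks, and 6.9% of replicate 2 peaks had their middle inside an H3K4me3 interval. In windows of 500 bp, GAGGAA was found in 50% of replicate 1 and 32.4% of replicate 2 windows, GGGCGG in 19.1% and 28.4%, and in replicate 2 CACGTG in 16.4%, CCCCACCC in 13.1% and TGTGGT in 32.6%.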
